A study of Mus musculus with 6 samples.

Results

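The Wnt signalling genes examined here are 46 named components of the pathway. They were listed by name, with earlier results of these data known. They are 10 ligands, 2 genes of ligand secretion, 14 receptors and co-receptors and 6 secreted inhibitors. The rest are 3 genes of the destruction complex and β-catenin, 4 TCF/LEF transcription factors and 7 feedback targets. Of the 46, 45 were measured, among 22180 named genes in all, and Tcf7 had no probe set of its own. Their values come from 6 Affymetrix arrays: organoid cultures of mouse mammary stem cells were compared, 3 Mll3-null and 3 wild type (WT), from lines made with CRISPR. Values of a group are listed throughout in the order of replicates 1 to 3, on the log2 scale. Mll3 (Kmt2c) encodes an enhancer-associated histone H3 lysine 4 methyltransferase, and the study asked what its deletion does to these cells. Both groups were untreated apart from the genotype, as far as the labels say, and the sources used here do not give mouse strain, age or the number of clones behind each group. Each array is labelled a biological replicate without saying whether it is a separate line or a separate culture, so the p-values measure only the spread between these samples.

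Wnt ligands are lipid-modified secreted proteins. Bound to a Frizzled receptor with LRP5 or LRP6, they stop the destruction complex of AXIN, APC and kinases from degrading β-catenin, which then joins TCF/LEF factors on DNA and switches on targets, several of which (Axin2, Nkd1, Notum, Rnf43, Znrf3) act back on the pathway. Other ligands act without β-catenin through ROR and RYK receptors. In the mammary gland, Wnt signalling is known for sustaining basal stem cells and branching.

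TCF/LEF factors recognise a short core, here searched as CTTTG followed by 2 bases that are each A or T, on either strand, in the 250 bases before each RefSeq gene start (GRCm38.p6). No other motif was searched. Of the 46 members, 30 matched the promoter table with 40 start sites, and 7 of these 40 windows (17.5%) held the motif, against 14.8% of all 32851 windows. Apc, Axin1, Dkk3, Fzd2, Fzd3, Fzd6, Fzd8, Lrp5, Lrp6, Notum, Porcn, Sfrp1, Wnt5a, Wnt7b, Wnt10a and Znrf3 were not matched. Sp5 and Dkk1 held 2 matches each, and 1.43% of all windows held 2 or more. Those 2 promoters are shown because they held matches and their genes are known β-catenin targets. Those of Fzd7 and Tcf7l2 are shown because they held a match and their genes had non-overlapping groups in the values that follow. Capitals mark the matches, and the sequences are printed 5′ to 3′ towards the gene. The windows lie at chr2:70474673-70474922 (plus strand), chr19:30549497-30549746 (minus strand), chr1:59481897-59482146 (plus strand) and, for the second of the listed Tcf7l2 starts, chr19:55895071-55895320 (plus strand).
Sp5: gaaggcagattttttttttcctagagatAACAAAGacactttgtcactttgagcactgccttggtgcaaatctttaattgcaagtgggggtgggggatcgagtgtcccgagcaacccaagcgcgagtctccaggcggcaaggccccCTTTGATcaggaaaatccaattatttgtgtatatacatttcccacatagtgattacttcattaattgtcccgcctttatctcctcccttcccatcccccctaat
Dkk1: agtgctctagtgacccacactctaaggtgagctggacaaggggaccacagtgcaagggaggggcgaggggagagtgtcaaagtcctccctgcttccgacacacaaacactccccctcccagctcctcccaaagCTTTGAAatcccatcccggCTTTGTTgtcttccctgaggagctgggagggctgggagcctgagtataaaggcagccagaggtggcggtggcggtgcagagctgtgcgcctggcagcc
Fzd7: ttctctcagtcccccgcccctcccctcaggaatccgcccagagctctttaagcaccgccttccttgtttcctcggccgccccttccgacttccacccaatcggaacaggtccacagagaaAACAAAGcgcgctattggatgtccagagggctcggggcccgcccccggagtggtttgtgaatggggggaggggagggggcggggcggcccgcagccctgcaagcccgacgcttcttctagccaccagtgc
Tcf7l2: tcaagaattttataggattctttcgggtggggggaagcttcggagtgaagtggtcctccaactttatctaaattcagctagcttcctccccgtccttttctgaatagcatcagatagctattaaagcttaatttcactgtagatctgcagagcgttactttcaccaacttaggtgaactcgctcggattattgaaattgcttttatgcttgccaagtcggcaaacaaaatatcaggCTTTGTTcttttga
A match is a run of letters only. Of the other genes with non-overlapping groups, Wnt3 and Fzd4 had windows with no match, and Fzd6 and Fzd8 were not matched to the table. The other start of Tcf7l2 and the single Axin2 window held no match, and Lef1, Wnt5b and Wnt11 held 1 match each at 1 of their listed starts.

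The 6 arrays had closely similar medians (4.35 to 4.40 over all probe sets, log2), and 1 array stood apart. In Mll3-null replicate 3, 294 genes (1.33%) lay over 1 log2 unit below all 5 other arrays, against 1 to 24 genes for each of the other arrays. The mean of the 6 epithelial markers was 10.03 to 10.56 in Mll3-null and 10.23 to 10.59 in WT arrays. Among them the keratin Krt7 was at 10.90, 9.40 and 9.57 on the Mll3-null arrays, against 10.63 to 10.85 on the WT arrays, and Cdh1 (E-cadherin) differed by -0.34 ± 0.13 (SE, unadjusted p = 0.038, adjusted p = 0.84, limma), both with overlapping groups. All fibroblast, endothelial, immune and adipocyte markers had mean values under 6, and the list means ran from 3.63 to 4.46 in Mll3-null and 3.47 to 4.37 in WT arrays. Of these, the fibroblast marker Pdgfra was at 4.55, 6.32 and 5.47 on the Mll3-null arrays, against 5.14 to 5.25 on the WT arrays. The 6 measured basal markers averaged 9.33, 9.81 and 6.92 on the Mll3-null arrays, against a range of 8.75 to 9.37 on the WT arrays. Kmt2c itself was at 5.84, 6.42 and 6.07 on the Mll3-null arrays, against 6.63, 5.58 and 5.82 on the WT arrays, so its level did not separate the groups (difference 0.10 ± 0.29, SE). The labels do not say which part of the gene was deleted, so this probe set does not check the genotype.

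None of the 45 measured Wnt genes differed between Mll3-null and WT cells after correction over all genes (limma, Benjamini-Hochberg, adjusted p under 0.05). All genes together gave 0 calls (0%), and the smallest adjusted p was 0.84 among the members and over all genes. At an unadjusted p under 0.05, 1 member was higher (Tcf7l2), where 2.51% of all genes were, and 2 were lower (Fzd6 and Fzd8), where 2.42% of all genes were. By group means 22 members were higher and 23 lower, with a median log2 difference of -0.01 over the members and 0.01 over all genes. The 3 Mll3-null arrays lay above the 3 WT arrays for 3 members (Fzd4, Fzd7, Tcf7l2), against 5.44% of all genes, and below them for 3 (Wnt3, Fzd6, Fzd8), against 5.31%. In either direction that is 6 of 45 members, near the 10.7% of all genes. A difference that misses the threshold with 3 arrays a group is not shown to be absent. The plot of differences with their intervals shows how wide the uncertainty is for each gene.

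**Figure D1:**
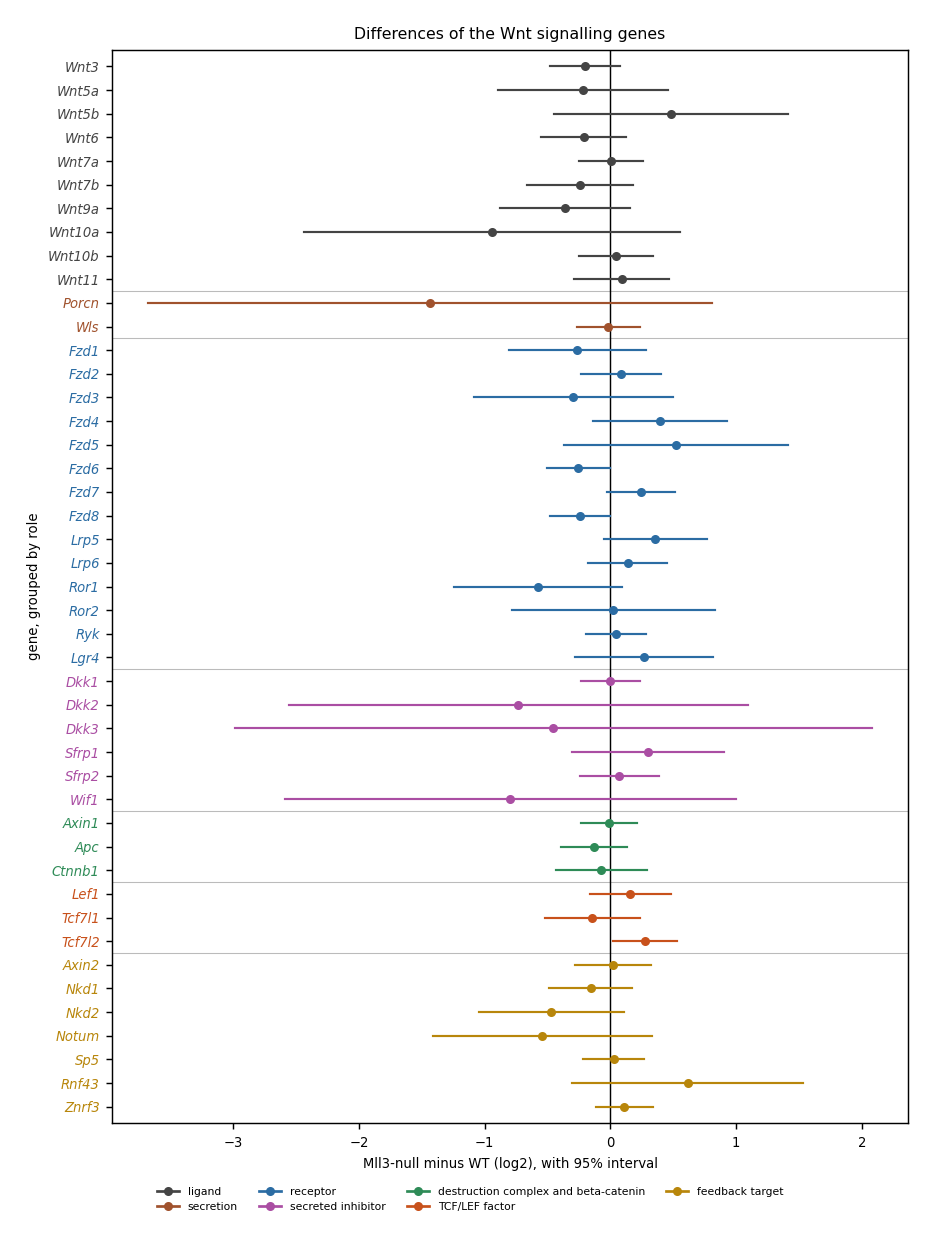
Difference between Mll3-null and WT cells for each of the 45 measured Wnt genes, as the log2 difference of group means (point) with limma's 95% interval (line), n = 3 arrays each, coloured by role. Most points lie within 0.5 of zero, and the intervals of Porcn, Wnt10a, Dkk2, Dkk3 and Wif1 are the widest.

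The ligands included 1 gene with a wide spread and several with narrow ones. Wnt10a, a ligand known for β-catenin signalling in ectodermal organs, was at 8.55, 7.63 and 5.89 on the Mll3-null arrays, against 8.44, 8.40 and 8.06 on the WT arrays (log2). It was low in Mll3-null replicate 3, intermediate in replicate 2 and at the WT level in replicate 1. The difference was -0.94 ± 0.62 (SE, 95% interval -2.43 to 0.55, adjusted p = 0.84, limma), and -0.21 without Mll3-null replicate 3. Wnt5a, a ligand known mainly for β-catenin-independent signalling, was at 7.29, 6.15 and 6.76 on the Mll3-null arrays, against 7.02, 6.74 and 7.09 on the WT arrays. The groups overlapped, with both the highest and the lowest array among the Mll3-null cells, and the difference of -0.22 ± 0.28 turned to 0.08 without Mll3-null replicate 2. Its close relative Wnt5b was at 4.78, 6.09 and 6.28 on the Mll3-null arrays, against 5.22, 5.04 and 5.44 on the WT arrays. Replicates 2 and 3 lay above every WT array and replicate 1 below them. The Wnt5b difference was 0.48 ± 0.39, 0.95 without Mll3-null replicate 1 and 0.20 without replicate 3.

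Wnt9a had the reverse arrangement, at 5.91, 5.24 and 5.22 on the Mll3-null arrays, against 5.63, 6.05 and 5.77 on the WT arrays. Replicates 2 and 3 lay below all WT arrays and replicate 1 within their range (difference -0.36 ± 0.22, and -0.59 without replicate 1). Wnt3 was dim, at 3.11, 3.48 and 3.39 on the Mll3-null arrays, against 3.54, 3.54 and 3.50 on the WT arrays. Its groups did not overlap, though by a margin of 0.01, and a mean under 4 was taken as dim. Wnt7b, expressed in luminal cells of the gland, differed by -0.24 ± 0.18, with overlapping groups. Wnt6, Wnt7a, Wnt10b and Wnt11 differed by between -0.21 and 0.09, all with overlapping groups. The ligands' median difference was -0.21, with 6 of 10 lower and 4 higher, and it was -0.05 without Mll3-null replicate 2.

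**Figure D2:**
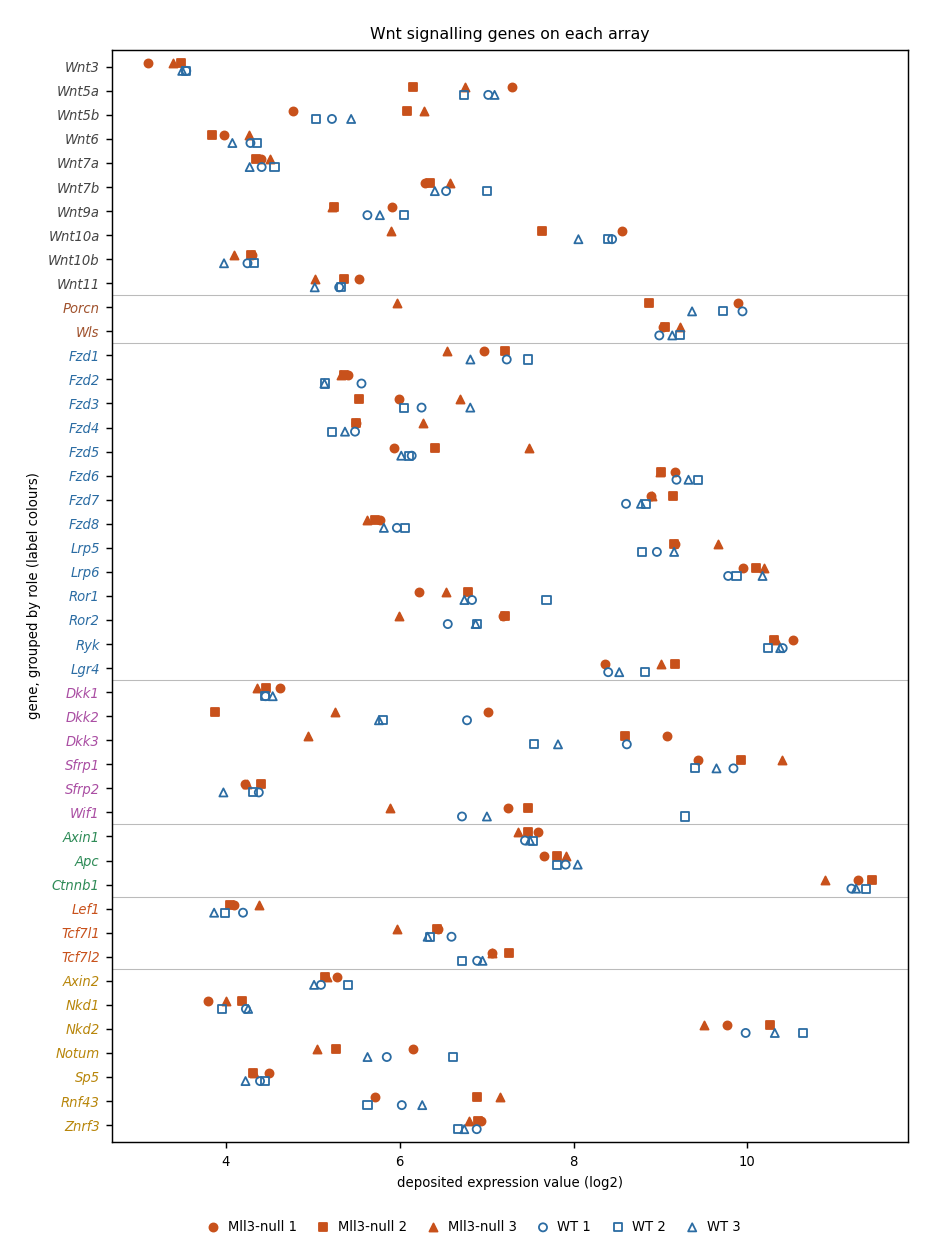
Deposited log2 value of each measured Wnt gene on each array; filled orange symbols are the 3 Mll3-null arrays and open blue symbols the 3 WT arrays, with the symbol shape giving the replicate number. Genes are ordered by role, and values of different genes come from different probe sets and are not comparable in level. Mll3-null replicate 3 (filled triangle) lies far left of all other arrays for Wnt10a, Porcn and Dkk3.

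The 2 genes of ligand secretion differed in their spread over the arrays. Porcn encodes the acyltransferase that attaches the lipid without which Wnt proteins are not secreted, and it was at 9.90, 8.87 and 5.96 on the Mll3-null arrays, against 9.94, 9.72 and 9.36 on the WT arrays. Mll3-null replicate 3 lay 2.91 log2 units below the lowest other array, replicate 2 below all WT arrays, and replicate 1 within the WT range. The group means differed 2.70-fold, or -1.43 ± 0.93 (log2, SE, 95% interval -3.67 to 0.81, adjusted p = 0.84, limma), the widest difference among the members. Without Mll3-null replicate 3 the difference was -0.29, and without replicate 1 it was -2.26. By the depth of the drop in replicate 3, Porcn ranked 40 among the 22180 genes, Dkk3 51 and Wnt10a 120. Of the 3 named genes on either side of Porcn on the X chromosome in gene order, Rbm3os, Slc38a5 and Ssxb10 were under 4 on every array. In replicate 3, Ebp was 0.97 below its mean on the other 5 arrays, Ftsj1 0.28 and Tbc1d25 0.23 below theirs. The dim neighbours lay between -0.18 and 0.40 of theirs. Wls, the carrier that takes lipid-modified Wnt proteins to the surface, was at 9.03, 9.05 and 9.22 on the Mll3-null arrays, against 8.99, 9.23 and 9.14 on the WT arrays. The groups overlapped and the interval of its difference ran from -0.27 to 0.24.

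Members whose values spanned 2 log2 units or more over the 6 arrays were 5 of 45 (Dkk3, Porcn, Wif1, Dkk2 and Wnt10a), against 2.8% of all genes. Among genes with a mean over 6, it was 4 of 27 members and 5.30% of 8752 genes. In 4 of the 5 (Porcn, Dkk3, Wnt10a, Wif1) the lowest array was Mll3-null replicate 3, which lay over 1 log2 unit below all others in the first 3 and 0.83 below them for Wif1. The same array had the lowest basal markers: Krt14, a basal keratin, was at 6.65 there and between 11.74 and 12.43 on the other arrays, and Trp63, the basal transcription factor p63, at 5.02 and between 7.86 and 8.84. Krt17 and Acta2 were also lowest there, while Oxtr and Itga6, the remaining 2 of the 6 measured basal markers, were highest there. The mean of the luminal markers was highest on that array. The 6 measured genes averaged 6.88, 6.96 and 7.90 on the Mll3-null arrays, against 6.36 to 7.25 on the WT arrays. Of these, Elf5, Gata3 and Pgr were highest in Mll3-null replicate 3, Kit in replicate 2 and Foxa1 in replicate 1. Esr1 was at 6.06 in Mll3-null replicate 3, below the WT arrays (6.25 to 7.01). The part of the basal and luminal markers in the Wnt values was not tested, and in such bulk samples fewer cells of a type and less RNA per cell cannot be told apart.

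**Figure D3:**
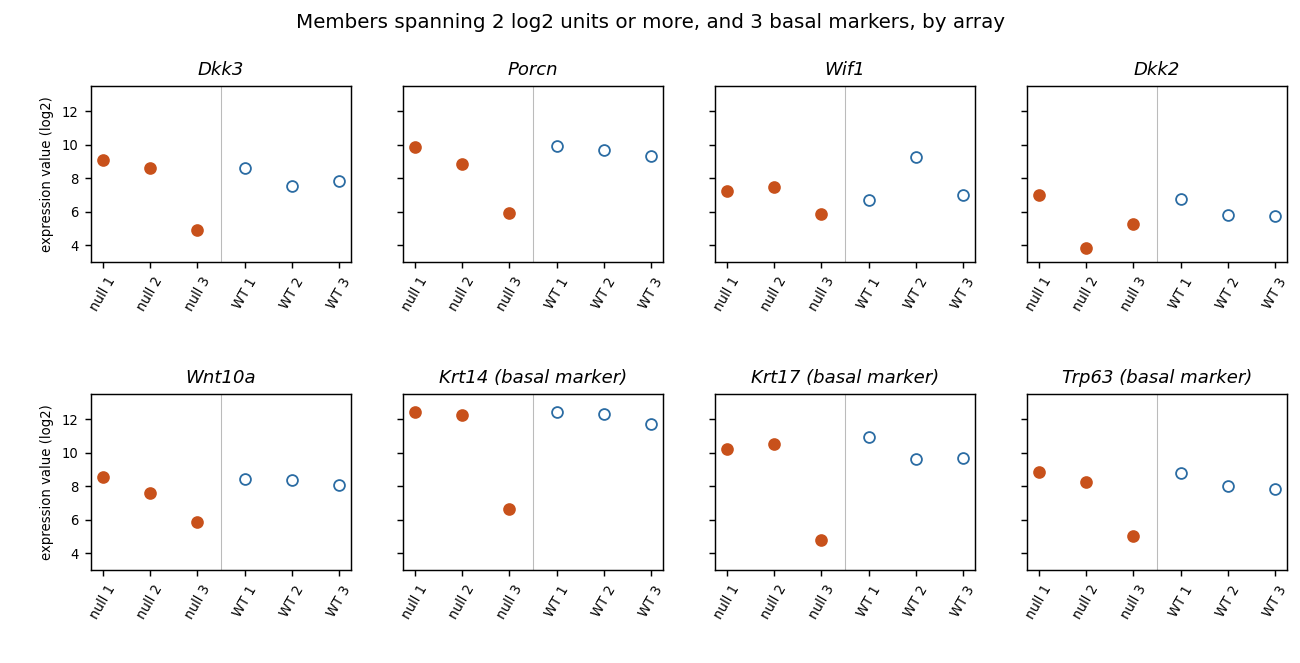
Log2 value on each array for the 5 Wnt genes that spanned 2 log2 units or more and for 3 basal markers; filled orange points are Mll3-null arrays and open blue points WT arrays. Dkk3, Porcn, Wnt10a, Wif1, Krt14, Krt17 and Trp63 were lowest in Mll3-null replicate 3 and Dkk2 in Mll3-null replicate 2, while Wif1 was highest in WT replicate 2.

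Among the receptors, 9 of 14 were higher by group means and 5 were lower, for a median difference of 0.06. Fzd6, a Frizzled receptor known for planar cell polarity, was at 9.17, 9.01 and 9.00 on the Mll3-null arrays, against 9.18, 9.43 and 9.32 on the WT arrays. All Mll3-null arrays lay below all WT arrays by a margin of about 0.01, and the difference was -0.25 ± 0.10 (SE, unadjusted p = 0.046, adjusted p = 0.84, limma). Fzd8 was at 5.77, 5.72 and 5.63 on the Mll3-null arrays, against 5.97, 6.06 and 5.82 on the WT arrays, again without overlap, with a difference of -0.24 ± 0.10 (unadjusted p = 0.046, adjusted p = 0.84, limma). Over the 15 alternative settings the difference stayed between -0.32 and -0.19 for Fzd6 and between -0.31 and -0.19 for Fzd8. Several of these settings leave the difference of a gene with 1 probe set as it is. Groups without overlap also keep their sign when arrays are left out. The ranges are thus no separate support for the differences. Fzd7, a receptor linked to basal mammary stem cells and the gene of the promoter shown above with 1 match, was at 8.89, 9.15 and 8.91 on the Mll3-null arrays, against 8.60, 8.83 and 8.78 on the WT arrays. Its groups did not overlap in the higher direction, with a difference of 0.24 ± 0.11 (unadjusted p = 0.071).

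Fzd4 was at 5.49, 5.50 and 6.26 on the Mll3-null arrays, against 5.49, 5.22 and 5.37 on the WT arrays, where the first pair of Mll3-null values exceeded the highest WT value by about 0.01 and replicate 3 exceeded it clearly. Its difference of 0.39 ± 0.22 was 0.14 without replicate 3. Fzd5 was at 5.93, 6.41 and 7.49 on the Mll3-null arrays, against 6.14, 6.11 and 6.02 on the WT arrays, highest in Mll3-null replicate 3, next in replicate 2 and lowest in replicate 1. The Fzd5 difference of 0.52 ± 0.37 was 0.08 without Mll3-null replicate 3 and 0.86 without replicate 1. Fzd5, Fzd7, Wnt6 and Wnt10a lie on chromosome 1, whose 510 expressed genes had a median 0.30 log2 units above their own 6-array medians in Mll3-null replicate 3, 0.09 in replicate 2 and -0.06 in replicate 1, against -0.06 to 0.01 in WT arrays. The part of that shift in the values of these 4 genes was not tested. Chromosome 10, which holds Wif1, had a shift in a WT array: its 443 expressed genes had a median of -0.05 to -0.02 on the Mll3-null arrays, against 0.22 in WT replicate 1 and -0.05 and 0.01 in WT replicates 2 and 3, and its part in the Wif1 values was not tested. Fzd1, Fzd2 and Fzd3 overlapped between the groups, with differences of -0.26 ± 0.23, 0.08 ± 0.13 and -0.30 ± 0.33 (SE).

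The co-receptors LRP5 and LRP6, which pass the signal with Frizzled, had higher means in Mll3-null cells. Lrp5 was at 9.17, 9.16 and 9.66 on the Mll3-null arrays, against 8.96, 8.79 and 9.16 on the WT arrays, where Mll3-null replicate 2 equalled WT replicate 3 to 2 decimals. Its difference was 0.36 ± 0.17 (95% interval -0.05 to 0.77). Lrp6 was at 9.96, 10.10 and 10.20 on the Mll3-null arrays, against 9.78, 9.88 and 10.17 on the WT arrays. Its groups overlapped, with a difference of 0.14 ± 0.13. The second, dimmer Lrp6 probe set differed by 0.20, and its groups did not overlap. It was at 6.06, 6.12 and 6.35 on the Mll3-null arrays, against 6.01, 5.92 and 6.03 on the WT arrays. Ror1, a tyrosine kinase receptor for Wnt5a, was at 6.22, 6.79 and 6.53 on the Mll3-null arrays, against 6.83, 7.69 and 6.74 on the WT arrays. The groups overlapped by a narrow margin, WT replicate 2 was the highest array, and the difference of -0.57 ± 0.28 was -0.27 without it. Ror2, the related receptor, was at 7.19, 7.21 and 5.99 on the Mll3-null arrays, against 6.55, 6.88 and 6.87 on the WT arrays. Mll3-null replicates 1 and 2 lay above all WT arrays and replicate 3 below them, so that a difference of 0.02 ± 0.34 became 0.43 without replicate 3.

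Ryk, a further Wnt receptor of the kinase fold, was at 10.52, 10.30 and 10.33 on the Mll3-null arrays, against 10.41, 10.24 and 10.38 on the WT arrays. The 6 arrays spanned 0.28 log2 units, and the interval of its difference ran from -0.20 to 0.29. Lgr4, the receptor through which R-spondins enhance Wnt signals, was at 8.37, 9.17 and 9.00 on the Mll3-null arrays, against 8.40, 8.82 and 8.53 on the WT arrays. Replicates 2 and 3 lay above all WT arrays and replicate 1 below them, with a difference of 0.27 ± 0.23, or 0.51 without replicate 1.

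Of the 6 secreted inhibitors, 3 spanned 2 log2 units or more within 1 of the genotypes. Dkk3, a divergent Dickkopf protein, was at 9.08, 8.59 and 4.94 on the Mll3-null arrays, against 8.61, 7.54 and 7.82 on the WT arrays. Mll3-null replicates 1 and 2 were near or above the highest WT array and replicate 3 was 2.60 below the lowest of the others. Its difference of -0.45 ± 1.06 changed sign to 0.85 without replicate 3. Dkk2, which blocks LRP5 and LRP6, was at 7.01, 3.87 and 5.26 on the Mll3-null arrays, against 6.77, 5.80 and 5.76 on the WT arrays. Here the lowest array was Mll3-null replicate 2 and the highest replicate 1, and the difference of -0.73 ± 0.76 was 0.02 without replicate 2. Wif1, a secreted Wnt-binding inhibitor, was at 7.25, 7.47 and 5.89 on the Mll3-null arrays, against 6.72, 9.28 and 7.00 on the WT arrays. WT replicate 2 stood 1.81 above the next array, and without it the difference of -0.80 ± 0.75 was 0.01.

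Sfrp1, a decoy that binds Wnt ligands, was at 9.44, 9.93 and 10.40 on the Mll3-null arrays, against 9.84, 9.40 and 9.64 on the WT arrays. Mll3-null replicate 3 was the highest array and replicate 1 lay within the WT range, for a difference of 0.30 ± 0.25 (95% interval -0.31 to 0.90). Dkk1 and Sfrp2 had values between 3.97 and 4.62 on all arrays and differences of 0.00 ± 0.10 and 0.07 ± 0.13. Dkk1, whose promoter above held 2 matches, was thus the member with the smallest difference of all. The inhibitors' median difference was -0.23, but 0.06 without Mll3-null replicate 3, 0.01 without replicate 2 and -0.53 without replicate 1.

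The 3 genes of the intracellular core had overlapping groups. Ctnnb1, which encodes β-catenin, was at 11.27, 11.43 and 10.89 on the Mll3-null arrays, against 11.20, 11.37 and 11.25 on the WT arrays. Mll3-null replicate 3 was lowest, the others overlapped, and the difference was -0.07 ± 0.15 (95% interval -0.43 to 0.29), or 0.08 without replicate 3. Apc, the scaffold of the destruction complex, was at 7.66, 7.81 and 7.92 on the Mll3-null arrays, against 7.91, 7.81 and 8.05 on the WT arrays, with overlapping groups and a difference of -0.13 ± 0.11. Axin1, the limiting scaffold of that complex, was at 7.59, 7.48 and 7.36 on the Mll3-null arrays, against 7.44, 7.54 and 7.50 on the WT arrays. Its arrays spanned 0.23 log2 units and its difference was -0.01 ± 0.09 (95% interval -0.24 to 0.21).

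Of the TCF/LEF factors, Tcf7l2 had the smallest unadjusted p among the members. This gene, encoding TCF4, a partner of β-catenin on DNA, was at 7.07, 7.26 and 7.07 on the Mll3-null arrays, against 6.89, 6.72 and 6.95 on the WT arrays. Every Mll3-null array exceeded every WT array, with a difference of 0.28 ± 0.11 (SE, 95% interval 0.02 to 0.53, unadjusted p = 0.036, adjusted p = 0.84, limma). Over the 15 alternatives the difference ran from 0.21 to 0.34. As for Fzd6 and Fzd8, its sign could not change with arrays left out, so the range is no separate support. Tcf7l1, encoding TCF3, known mainly as a repressor, was at 6.43, 6.43 and 5.97 on the Mll3-null arrays, against 6.60, 6.35 and 6.32 on the WT arrays. Mll3-null replicate 3 was the lowest array and the other 2 Mll3-null arrays lay among the WT arrays, with a difference of -0.14 ± 0.16. Lef1 was near 4 on every array, from 3.86 to 4.39, and differed by 0.16 ± 0.14.

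The feedback targets, the usual readout of β-catenin activity, were split into 4 higher and 3 lower by group means. All had overlapping groups at the probe set used. Axin2, the standard target, was at 5.28, 5.14 and 5.16 on the Mll3-null arrays, against 5.09, 5.41 and 5.01 on the WT arrays. The groups overlapped, with an interval from -0.28 to 0.32, and its 2 probe sets differed in sign (0.02 and -0.15). Nkd2, an antagonist that binds Dishevelled, was at 9.77, 10.26 and 9.50 on the Mll3-null arrays, against 9.98, 10.64 and 10.32 on the WT arrays. The lowest 2 arrays were Mll3-null and the highest 2 WT, with a difference of -0.47 ± 0.24 (95% interval -1.05 to 0.11). Notum, the secreted deacylase that inactivates Wnt ligands, was at 6.16, 5.26 and 5.05 on the Mll3-null arrays, against 5.85, 6.62 and 5.63 on the WT arrays. Replicates 2 and 3 lay below all WT arrays and replicate 1 among them. The difference was -0.54 ± 0.36, or -0.25 without WT replicate 2. A dimmer second Notum probe set differed by -0.17, and its groups did not overlap. It was at 4.03, 3.90 and 4.10 on the Mll3-null arrays, against 4.24, 4.16 and 4.14 on the WT arrays.

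Rnf43, a ubiquitin ligase that removes Frizzled receptors from the surface, was at 5.71, 6.89 and 7.15 on the Mll3-null arrays, against 6.02, 5.63 and 6.26 on the WT arrays. Replicates 2 and 3 exceeded all WT arrays and replicate 1 was within their range, with a difference of 0.61 ± 0.38 (95% interval -0.30 to 1.53), the largest in the higher direction among the members. Without Mll3-null replicate 1 it was 1.05 and without replicate 3 it was 0.33. Znrf3, the related ligase, was at 6.93, 6.90 and 6.80 on the Mll3-null arrays, against 6.89, 6.67 and 6.74 on the WT arrays, with overlapping groups and a difference of 0.11 ± 0.10. Sp5, a transcription factor whose promoter above held 2 matches, differed by 0.03 ± 0.10, and Nkd1 by -0.16 ± 0.14, both with values under 5 on all arrays.

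**Figure D4:**
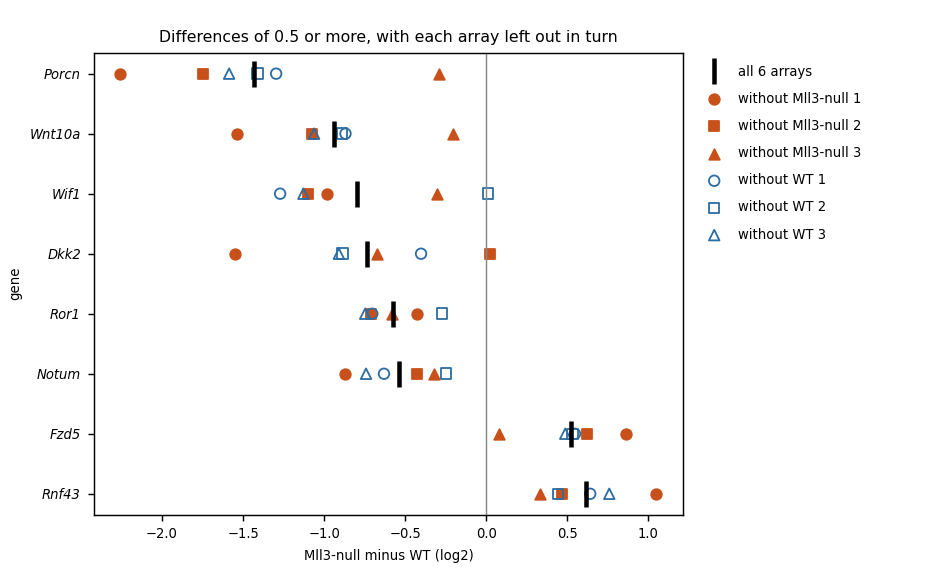
Log2 difference between Mll3-null and WT cells for the 8 Wnt genes whose difference was 0.5 or more in either direction; the black bar is the value from all 6 arrays, filled orange symbols leave out a Mll3-null array and open blue symbols a WT array. Leaving out Mll3-null replicate 3 brings Porcn to -0.29, Wnt10a to -0.21 and Fzd5 to 0.08, and leaving out Mll3-null replicate 1 moves Porcn, Wnt10a, Wif1, Dkk2, Notum, Fzd5 and Rnf43 away from zero.

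In several members Mll3-null replicate 1 lay with the WT arrays while replicates 2 and 3 departed from them together. Without replicate 1, 12 of 45 members (26.7%) had an unadjusted p under 0.05, against 12.4% of all genes in that fit. The 6 higher were Fzd5, Lgr4, Rnf43, Sfrp1, Tcf7l2 and Wnt5b, and the 6 lower were Dkk2, Fzd6, Notum, Porcn, Wnt10a and Wnt9a. The smallest adjusted p among the members was then 0.16, so none passed. Replicate 1 lay on the side of the other Mll3-null arrays for Fzd6 and Tcf7l2. It lay below all WT arrays for Fzd5, Lgr4 and Wnt5b, and above them for Dkk2 and Wnt10a. Without Mll3-null replicate 2 or 3 the count was 1 and 4 of 45, against 3.23% and 3.87% of all genes. Without WT replicate 1, 2 or 3 it was 2, 0 and 2, against 3.96%, 4.17% and 3.81%. Leaving out an array was an alternative setting, and these 12 are a description.

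The other Wnt pathway genes, a list of 69 components and targets outside the 46 of which 67 were measured, likewise held no gene past the correction. At an unadjusted p under 0.05, 4 were higher (Bcl9l, Bcl9, Tle3 and Kremen2) and 1 was lower (Wnt4), where 2.51% and 2.42% of all genes were, and by group means 34 were higher and 33 lower (median 0.0035). Groups did not overlap for 5 of 67, against 10.7% of all genes: Bcl9l, Bcl9, Tle3 and Wnt2 were higher and Dvl3 was lower. Bcl9l and Bcl9 encode β-catenin co-activators. Bcl9l was at 7.86, 7.78 and 7.75 on the Mll3-null arrays, against 7.61, 7.48 and 7.49 on the WT arrays, and Bcl9 at 7.57, 7.88 and 7.72 on the Mll3-null arrays, against 7.55, 7.38 and 7.33 on the WT arrays. For both genes the Mll3-null arrays exceeded every WT array, with differences of 0.27 ± 0.09 and 0.31 ± 0.12 (SE, unadjusted p = 0.018 and 0.033, adjusted p = 0.84, limma). Tle3, a Groucho co-repressor, also did not overlap and differed by 0.40 ± 0.16, with Mll3-null values of 8.46 to 8.84 against WT values of 8.00 to 8.45.

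Wnt4, the ligand of hormone-sensing luminal cells, was at 6.17, 5.83 and 5.60 on the Mll3-null arrays, against 6.81, 6.59 and 6.14 on the WT arrays. Mll3-null replicate 1 lay just above the lowest WT array and the other 2 Mll3-null arrays below all WT arrays, with a difference of -0.65 ± 0.21 (unadjusted p = 0.021, adjusted p = 0.84, limma). The R-spondin receptor Lgr6 was at 7.83, 7.18 and 6.21 on the Mll3-null arrays, against 8.05, 8.95 and 7.56 on the WT arrays, low in Mll3-null replicate 3 and high in WT replicate 2, and Lgr5 differed by 0.25 ± 0.36 with values under 5 on all arrays. The general targets Ccnd1 (cyclin D1) and Myc differed by -0.09 ± 0.08 and 0.11 ± 0.15, with overlapping groups. Among the other targets, Cd44, Sox9 and the dim Mmp7 differed by -0.52 ± 0.35, -0.43 ± 0.40 and -0.43 ± 0.21. Their groups overlapped, and Mll3-null replicate 3 was lowest. Tnfrsf19, Ascl2, Sox4 and Bmp4 differed by between -0.04 and 0.02. The inhibitor Sostdc1 had the list's largest difference, -1.78 ± 1.48. It was at 5.01 in Mll3-null replicate 3 and 9.68 to 10.88 on the other arrays.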

How the data were processed

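Per the labels' protocols, biotinylated cRNA from total RNA was hybridised to single-channel Affymetrix arrays. Per the submitters' processing notes, Affymetrix Expression Console made the values; its version, its normalization and the genome build are not stated in those notes. The deposited values were read as log2 expression because they lie between 1.72 and 13.56 and share their quartiles across arrays. Detection values were not used. Of 41345 probe sets, 23521 carried exactly 1 symbol in the platform annotation, and for each of 22180 genes the one of highest mean was used.

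The genotypes were compared by limma 3.58.1 (R 4.3.3; lmFit, then eBayes; two-sided; no block) on all 6 arrays, with Benjamini-Hochberg adjustment over all 22180 genes and a threshold of 0.05. A difference is the Mll3-null mean minus the WT mean, with its moderated SE. The fit was tested on simulated data. Means under 4 were called dim, over 6 expressed. Per-array values are given for members with an unadjusted p under 0.05, with non-overlapping groups and a difference of 0.5 or more, or with a span of 2 or more, and for the 2 of highest mean per role. The other members shown by array, and the promoters (RefSeq), were chosen after their values were seen. The members and lists were chosen with earlier results of these data known. Alternatives covered the spread model, array weights, a dim filter, scaling, centring, the probe set, a replicate block and left-out arrays.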

Additional observations from a re-analysis of the deposited data

How the results depend on the processing

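Over 15 alternatives (the 9 other settings and 6 left-out arrays), 0 members, 0 of the other Wnt pathway genes and 0 of all genes were called, and the smallest adjusted p of a member was 0.16 (limma, without Mll3-null replicate 1). The sign of the difference held under every alternative for 28 of the 45 members and changed under at least 1 for 17. The intensity trend, the dim filter and the replicate block cannot change a difference. The probe-set settings can change it only for the 4 members with more than 1 probe set. At an unadjusted p under 0.05, members numbered 0 with an intensity trend, 7 with array weights, 1 with only genes of a mean over 4, and 0 to 12 with arrays left out, against 3. All genes at that level numbered 2504 with array weights, 721 with the dim filter, where fewer genes were tested, and 716 to 2742 with arrays left out, against 1093. Non-overlapping members numbered 8 to 16 with an array left out and 19 without WT replicate 1 and Mll3-null replicate 3 together, where smaller groups overlap less often (17.9% to 31.7% of all genes). The members' median ran from -0.059 to 0.043 with arrays left out.

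Medians by role moved by more than their replicate spread as follows, and the cause was not tested. With array weights the secreted inhibitors were at 0.062, the destruction complex and β-catenin at -0.0036 and the TCF/LEF factors at 0.073. The feedback targets were at -0.067 with the mean of probe sets and -0.15 with the probe set of widest spread, where Axin2 takes its other probe set. With arrays left out (each alone, or WT replicate 1 and Mll3-null replicate 3 together), the inhibitors ran from -0.53 to 0.11, the destruction complex and β-catenin from -0.14 to 0.043, the TCF/LEF factors from 0.053 to 0.25, the feedback targets from -0.059 to 0.062, the ligands from -0.22 to -0.052 and the receptors from 0.021 to 0.10. The secretion genes, at -0.72 in the main fit, ran from -1.12 to -0.15 in those settings. They are not counted as moved only because their replicate spread was 0.69.

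With the replicate block, 4 members had an unadjusted p under 0.05 (Lrp5, Fzd1, Nkd2, Ror1), or 8.89% against 5.82% of all genes in that fit, and none was called. The labels do not say that a number is shared, so the numbers were not taken as pairs. Same-numbered arrays deviated together with correlations across genes of 0.03, 0.08 and 0.31. Combinations of different numbers ran from -0.29 to 0.22. Array signal limits Wnt3, Nkd1, Lef1, Wnt6, Wnt10b, Sfrp2, Sp5, Wnt7a and Dkk1, whose 6-array means ran from 3.43 to 4.48.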
